A study of Mus musculus with 2 samples.

Results

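Transcripts of 10 core circadian clock genes (Arntl, Clock, Per1, Per2, Per3, Cry1, Cry2, Nr1d1, Nr1d2 and Dbp) were read on microarrays of M-MDSCs, the monocytic subset of myeloid-derived suppressor cells, taken from mouse tumours. Every probe that was not a control and carried a RefSeq transcript of one of these genes was a member, which gave 11 probes of the 39429 different probes on the array, 2 of them for Dbp and 1 for each other gene. All 10 genes had a probe, among 20653 genes that the probes could be matched to. Probes thus entered by gene name and not by their signal, but the genes, like the other lists below, were chosen with earlier results of these data known. The question was whether the diet groups differed in the clock, and in particular whether Arntl and Clock on one side and their targets on the other stood apart between the arrays, as pools collected at different hours of the day could.

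Female BABL/c mice (the strain as written in the labels) were injected under the skin with 1000000 cells of 4T1, a mammary carcinoma line, after a day of starvation. They then received either the normal-salt diet (NSD, 0.4% NaCl in the chow with tap water) or the high-salt diet (HSD, 4% NaCl in the chow and drinking water with 1% NaCl), which lasted 16 days. M-MDSCs were isolated from the tumours with a magnetic bead kit, equal numbers of cells were mixed within each diet group, and the RNA of each mixture was hybridised to 1 one-colour array. Mice were kept under a light/dark cycle, but the hour at which tumours of either group were taken is not given in the sources used here. With 1 array per diet there were no replicates, so no value below has an error between mice and no test was possible. In pooled cells, fewer cells that express a gene and less RNA per cell also cannot be told apart.

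The clock is a feedback loop of transcription. The proteins of Arntl (also called BMAL1) and Clock form the positive limb, a dimer that binds E-box sequences and switches on the Per and Cry genes, Nr1d1, Nr1d2 and Dbp. The PER and CRY proteins form the negative limb and inhibit that dimer, the NR1D proteins (REV-ERB) repress Arntl through ROR elements in a second loop, and DBP carries the rhythm to further genes through D-boxes. In a tissue with a running clock, Arntl transcripts therefore peak when those of Nr1d1 and Dbp are low, with Cry1 later than the other repressors. Monocytes and macrophages have such a clock, and it is known for timing their release into blood and their inflammatory response.

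Stretches around the starts of the members with the largest differences between the arrays are printed here, with others for comparison. They are RefSeq sequence of mouse assembly GRCm38.p6, 5′ to 3′ on the strand of the gene, with letters of a clock motif in capitals. Per3 has a pair of D-boxes in the 80 bases from 220 to 141 bases before its start, chr4:151044806-151044885 on the minus strand. Cry1 has an E′-box and an E-box from 100 to 41 bases before its start, chr10:85185095-85185154 on the minus strand. For comparison, its paralogue Cry2 has only the E′-box, chr2:92434200-92434259 on the minus strand, and Per1 an E-box, chr11:69098759-69098818 on the plus strand, both shown from 190 to 131 bases before the start. Dbp is shown over the 200 bases before its start, chr7:45705047-45705246 on the plus strand, where no motif was matched. Arntl is represented by its ROR element, from 21 to 45 bases after the second annotated start, chr7:113207531-113207555 on the plus strand.
Per3: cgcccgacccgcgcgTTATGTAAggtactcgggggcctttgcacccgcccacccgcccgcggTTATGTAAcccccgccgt
Cry1: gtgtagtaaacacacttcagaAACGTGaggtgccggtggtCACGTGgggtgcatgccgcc
Cry2: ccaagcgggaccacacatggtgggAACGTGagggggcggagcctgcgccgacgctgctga
Per1: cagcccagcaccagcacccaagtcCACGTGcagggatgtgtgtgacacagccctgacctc
Dbp: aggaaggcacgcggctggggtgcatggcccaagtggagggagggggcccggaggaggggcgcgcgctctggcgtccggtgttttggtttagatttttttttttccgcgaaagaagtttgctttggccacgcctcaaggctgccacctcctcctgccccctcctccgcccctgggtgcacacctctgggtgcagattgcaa
Arntl: aggcagaaAGTAGGTCAgggacgga

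The letters searched, on both strands, were CACGTG for the E-box, CACGTT for the E′-box, TTANGTAA for the D-box, ANTAGGTCA for the ROR element and TGACGTCA for the cAMP response element. The E-box and the E′-box share 5 of 6 letters, and no matches in the windows of the clock genes overlapped. The windows ran from 250 bases before to 50 bases after a start, and 13 windows of 9 members were in the table. Per2 had none. Among all 32851 windows of that length, 7.15% held the E-box, 4.68% the E′-box, 2.32% the D-box, 0.661% the ROR element and 1.79% the cAMP response element. These shares are per window, whereas members were counted as genes, and Arntl, Clock and Per1 had more than 1 window each. The E-box was found in 2 members (Per1, at its first start, and Cry1), the E′-box in 3 (Cry1, Cry2 and Nr1d1), the D-box in 1 (Per3), the ROR element in 1 (Arntl) and the cAMP response element in 0. No motif was matched in the windows of Clock, Nr1d2 or Dbp. Sequence outside the windows was not searched, so these genes may hold motifs there. These are matches of letters and not sites shown to be bound.

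**Figure D1:**
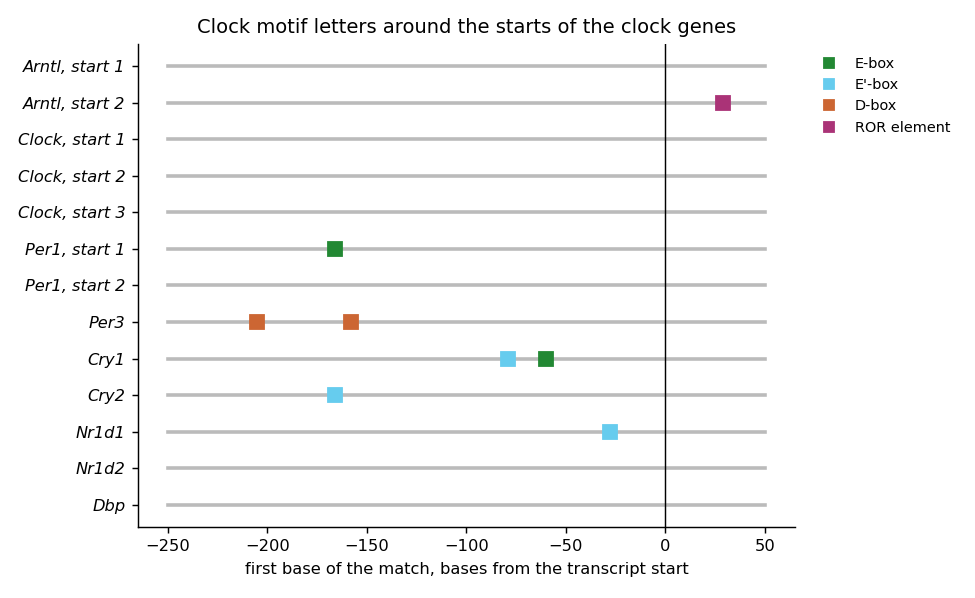
Matches of the clock motifs (coloured squares, at the first base of each match) along each promoter window of the clock genes (grey lines), with the distance from the transcript start in bases on the horizontal axis and negative values before the start. Per3 has D-boxes at -205 and -158, Cry1 an E′-box at -79 and an E-box at -60, and 8 of the matches in the plot belong to 6 genes.

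On the arrays, 6 of the 10 clock genes differed by less than 1.5-fold between the diet groups, 2 passed 1.5-fold in opposite directions, 1 was read on the HSD array only and 1 on neither. Of all 15209 genes that both arrays read well above background, 8.84% were at least 1.5-fold higher on the HSD array and 9.42% lower. Cry1, a repressor of the clock, was 1.60-fold higher on the HSD array. Dbp, a clock output, was at 0.610 of its NSD value, with the same reading from a second probe. Per3 was read only on the HSD array, and Nr1d1 on neither. Signals are the processed intensities of the scanner software, each followed by the software's own error for that spot. Fold changes were taken after dividing each array by its 75th percentile, 252 intensity units for NSD and 233 for HSD, so that a gene of equal signal on both is slightly higher on the HSD array once scaled. The error of a log2 fold change was carried over from the spot errors and covers measurement within an array only. It was 0.204 or 0.205 for every clock probe read on both arrays, and so is not a spread measured for each gene.

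**Figure D2:**
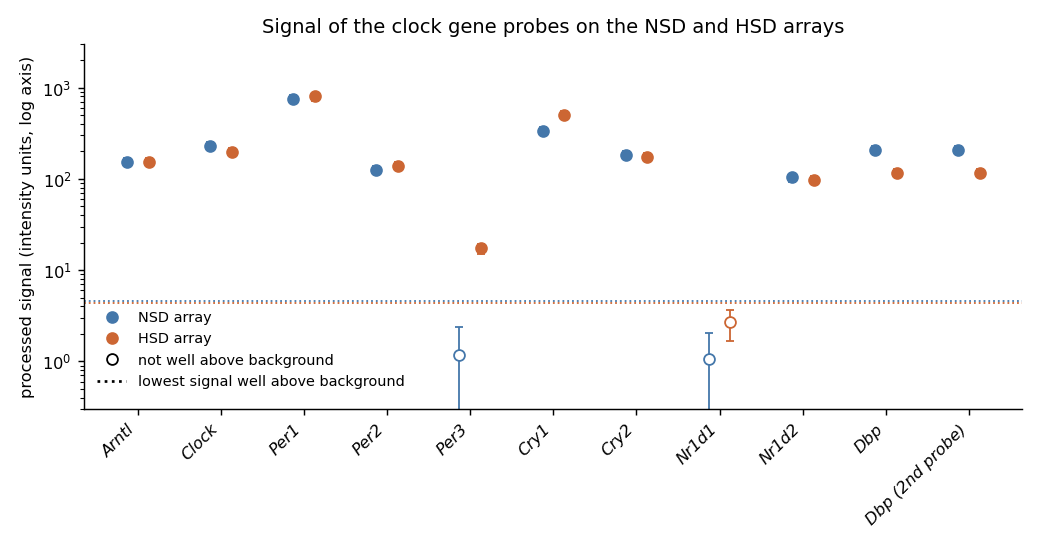
Processed signal (intensity units, log axis) of the 11 clock gene probes on the NSD array (blue) and the HSD array (orange), before scaling. Bars are the software's error of the spot, smaller than the symbol for most probes and running below the axis for Per3 and Nr1d1 on the NSD array. Open symbols mark signals not well above background, and the dotted lines the lowest signal that was (4.61 for NSD and 4.39 for HSD).

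In the positive limb, neither gene differed by more than its measurement error. The Arntl probe (NM_007489; gene at chr7:113178471-113314126 in GRCm38.p6, as for the genes below) read 152.8 ± 15.3 in NSD and 154.4 ± 15.5 in HSD cells, a log2 fold change of 0.13 ± 0.20. The Clock probe (NM_007715; chr5:76209868-76305603) read 229.4 ± 23.0 and 195.4 ± 19.6, a log2 fold change of -0.12 ± 0.20. Arntl was thus 1.09-fold higher and Clock at 0.922 of its NSD value, on opposite sides of 0. Differences of at least that size, in either direction, were held by 74.6% of the 1000 probes nearest in signal to Arntl and by 78.6% of those nearest to Clock.

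In the negative limb, the Per genes, whose proteins inhibit the dimer together with CRY, were divided by detection rather than by direction. Per1 (NM_011065; chr11:69095108-69109965), which also responds at once to hormones and handling, read 757.1 ± 75.7 in NSD and 800.1 ± 80.0 in HSD cells. Its log2 fold change was 0.19 ± 0.20. Per2 (NM_011066; chr1:91415977-91459351) read 124.9 ± 12.5 and 137.3 ± 13.8, a log2 fold change of 0.25 ± 0.21. Both were above 0 by about their measurement error, at 1.14-fold and 1.19-fold, and they differed from each other by a log2 value of only -0.056 ± 0.29 (Per1 minus Per2). Differences as large in either direction were held by 60.8% of the probes of like signal for Per1 and by 52.8% for Per2.

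Per3 (NM_011067; chr4:150997018-151044707), a Per gene that the clock can run without, was not well above background on the NSD array, at 1.188 ± 1.18, and was well above it on the HSD array, at 17.35 ± 2.18. Its fold change could only be bounded: it was at least 4.07-fold higher on the HSD array, against the lowest signal that was well above background on the NSD array. This bound was 3.55 to 4.09 under the other scalings, but 1.22 with the normexp background correction, under which Per3 no longer passed 1.5-fold. The NSD signal lay below the lowest signal well above background on that array (4.61). The HSD signal was above the lowest such signal there (4.39) but far under that array's 75th percentile of 233.

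The Cry genes, which encode the strongest repressors of the dimer, differed from each other. Cry1 (NM_007771; chr10:85131700-85185054) read 337.1 ± 33.7 in NSD and 498.2 ± 49.8 in HSD cells, a log2 fold change of 0.68 ± 0.20, or 60.0% higher. Cry2 (NM_009963; chr2:92403646-92434085) read 183.3 ± 18.4 and 175.2 ± 17.5, a log2 fold change of 0.05 ± 0.20. The difference between the fold changes of Cry1 and Cry2, which no scaling by 1 number per array can alter, was 0.63 ± 0.29. Cry1 passed 1.5-fold in 8 of 8 processing settings, with log2 values from 0.62 to 0.68, while Cry2 passed in none (0.0081 to 0.055). The Cry1 difference was nevertheless of a size found elsewhere on the array: 7.2% of the 1000 probes of like signal were as far or farther above 0, and 13.6% as far in either direction. Among the 15209 genes well above background on both arrays, 6.15% lay above Cry1.

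In the second loop, Nr1d1 could not be read. Nr1d1 (NM_145434; chr11:98767932-98775377), the REV-ERB whose transcript swings most widely over the day in many tissues, was at 1.051 ± 0.981 in NSD and 2.69 ± 1.0 in HSD cells, not well above background on either, and no fold change was given. Its relative Nr1d2 (NM_011584; chr14:18204056-18239106) read 103.8 ± 10.4 and 98.24 ± 9.87, a log2 fold change of 0.03 ± 0.21. That value was the smallest of the clock genes read on both arrays, and 92.1% of probes of like signal differed by at least as much.

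The output gene Dbp (NM_016974; chr7:45705100-45710203) encodes a factor that binds D-boxes, and it had the lowest fold change of the clock genes. Its main probe read 207.3 ± 20.8 in NSD and 116.8 ± 11.7 in HSD cells, a log2 fold change of -0.71 ± 0.21, or 0.610-fold. The second probe read 206.9 ± 20.7 and 115.0 ± 11.6, a log2 fold change of -0.73 ± 0.21. The probes read the same RNA, so their agreement shows repeatability within an array and not between mice. Among probes of like signal, 5.8% were as far or farther below 0 as the main probe and 11.4% as far in either direction, and 6.74% of genes read on both arrays lay below it. The log2 value ranged from -0.75 to -0.46 over 8 settings and passed 1.5-fold in 7 of them, the exception being the normexp correction.

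**Figure D3:**
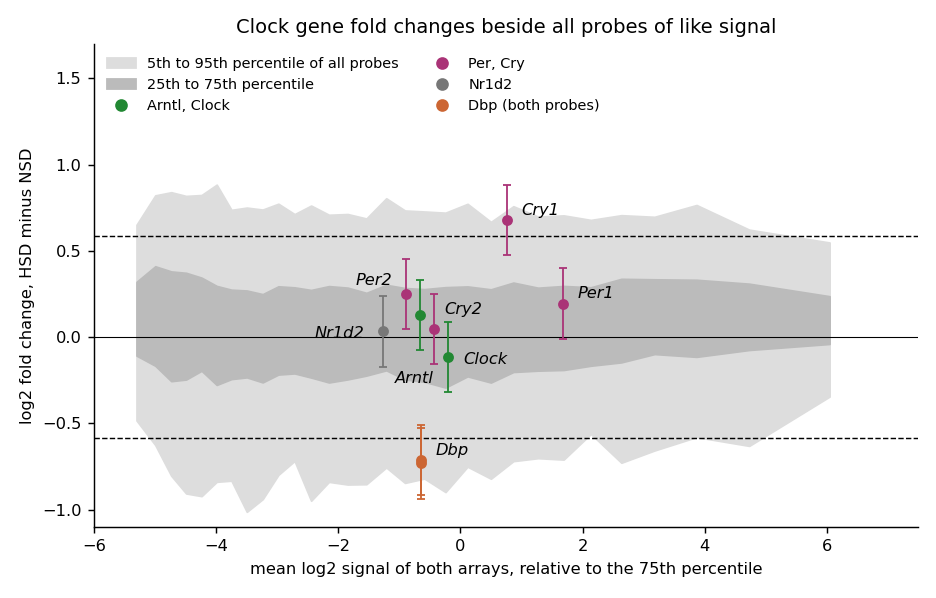
Log2 fold change (HSD minus NSD) of the clock probes well above background on both arrays against the mean log2 signal of both arrays relative to the 75th percentile. Grey bands span the 5th to 95th and the 25th to 75th percentile of all 27236 probes read on both arrays, bars are the measurement error, and dashed lines mark 1.5-fold. Cry1 at 0.68 and Dbp at -0.71 and -0.73 lie past the dashed lines but within the wider band, and the other genes within the narrower one.

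Counted as a list, 2 clock genes were at least 1.5-fold higher on the HSD array (Cry1 and Per3) and 1 was lower (Dbp), of 9 with a usable probe, that is well above background on at least 1 array. Over all 16312 genes with such a probe, 9.86% were higher and 10.3% lower by the same rule. Per3 was usable only through the array where it was high and so had to differ. Among the 8 clock genes well above background on both arrays, 1 was higher and 1 lower, beside 8.84% and 9.42% of the 15209 genes read on both. Of these 8, 6 were above 0 and 2 below, with a median log2 fold change of 0.089 beside 0.044 over all genes. The median size of the difference, regardless of direction, was 0.16 for the clock genes and 0.27 over all genes. The counts of 1 in each direction are close to the share of all genes that passed.

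Set against each other, the limbs lay close together by their medians, although Dbp and Cry1 lay far to either side. The positive limb had a median log2 fold change of 0.0065 (2 genes). The 6 genes outside it that were read on both arrays had a median of 0.12, a difference of 0.11. These 6 genes do not all peak at the same hour, so values in opposite directions can cancel in their median. Close medians therefore cannot show whether the collection hours were alike. With only Per1, Per2, Cry1 and Cry2 on the other side the difference was 0.22, and with means in place of medians it was 0.076. Scaling by 1 number per array cannot alter this difference, for which no error was worked out. It was 0.088 with quantile normalization and with the deposited values, 0.096 with cyclic loess and 0.064 with normexp.

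Among the 6 genes, log2 values ran from -0.71 for Dbp to 0.68 for Cry1. These, both driven by the dimer, differed in log2 fold change by -1.39 ± 0.29 (Dbp minus Cry1). Against the mean of Arntl and Clock, Cry1 was at 0.67 ± 0.25 and Dbp at -0.72 ± 0.25, whereas Per1 was at 0.19 ± 0.25, Per2 at 0.24 ± 0.25, Cry2 at 0.042 ± 0.25 and Nr1d2 at 0.028 ± 0.25. Dbp was lower relative to Arntl by a log2 value of -0.84 ± 0.29 and relative to Clock by -0.60 ± 0.29. Thus 4 of the 6 targets read on both arrays were within the measurement error of the positive limb, 1 was above it and 1 below. Whether the pools were collected at different hours was not tested, and with 1 array per diet the diet, the hour of collection and variation between the pools cannot be told apart.

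**Figure D4:**
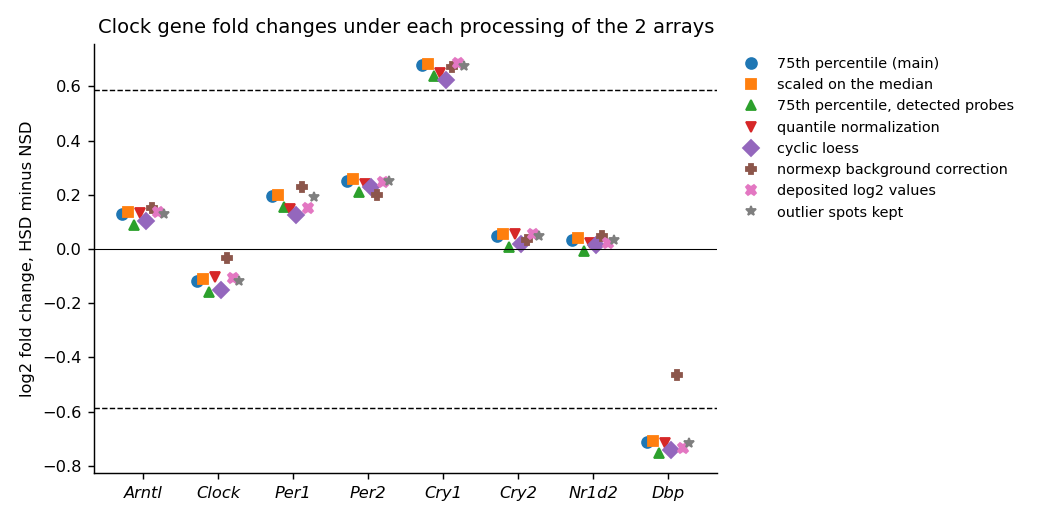
Log2 fold change (HSD minus NSD) of the 8 clock genes read on both arrays under each of 8 ways to process the arrays (symbols), with dashed lines at 1.5-fold. Cry1 stays above the upper line in 8 of 8 settings, Dbp leaves the region below the lower line with the normexp correction only (-0.46), and the other genes stay between the lines.

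Other genes of the pathway were read from a separate list of 28, of which 26 had a usable probe and 25 were read on both arrays. Of the 25, 3 were at least 1.5-fold higher and 3 lower on the HSD array, beside 8.84% and 9.42% of all genes read on both, and 15 lay above 0 and 10 below with a median log2 value of 0.050. The list held the rest of the D-box family, further repressors, the ROR activators and the enzymes that modify PER and CRY. The casein kinases, which mark PER proteins for degradation, did not pass, with Csnk1d at -0.08 ± 0.20 and Csnk1e at 0.12 ± 0.20. Their dimmer second probes gave -0.11 and 0.26. Timeless and Wee1, which link the clock to the cell cycle, were at -0.30 and 0.0032.

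Ciart, which encodes a repressor that binds the positive limb (also called CHRONO), had the largest fold change of the list. It read 15.65 in NSD and 43.89 in HSD cells, a log2 fold change of 1.60 ± 0.23, or 3.04-fold. Its signal was low, and with the normexp correction the log2 value was 0.57, just under 1.5-fold. Ciart was the only gene of this list whose promoter was scanned. Of all windows, 7.15% held at least 1 E-box, and the share with 3 was not worked out. Its promoter, printed from 130 to 31 bases before the start (chr3:95882259-95882358, minus strand, GRCm38.p6), held 3 E-boxes.
Ciart: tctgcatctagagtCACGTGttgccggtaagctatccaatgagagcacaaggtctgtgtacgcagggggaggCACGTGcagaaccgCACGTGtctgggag

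The other genes of D-box factors were read beside Dbp. Nfil3, whose protein represses at D-boxes, read 2840 in NSD and 4013 in HSD cells, a log2 fold change of 0.61 ± 0.20, but it passed 1.5-fold in only 3 of 8 settings (0.39 to 0.62). Hlf, an activator like DBP, read 32.06 and 46.19, a log2 fold change of 0.64 ± 0.21, and passed in 7 of 8. The third activator, Tef, was at -0.28 and did not pass.

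The genes of the list that were lower included other inhibitors of the dimer. Cipc, which encodes one, read 425.4 in NSD and 214.3 in HSD cells, a log2 fold change of -0.88 ± 0.20, and passed in 8 of 8 settings. A second Cipc probe, dimmer, gave -0.45. Bhlhe41, which competes for E-boxes, read 25.75 and 15.24 (-0.64 ± 0.24), with a second probe that was dim on both arrays. Its paralogue Bhlhe40 was at 0.11. With the normexp correction Bhlhe41 was nearer to 0, at -0.10. Rora and Rorb, which encode activators at ROR elements, were at -0.20 and 0.021 and did not pass.

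**Figure D5:**
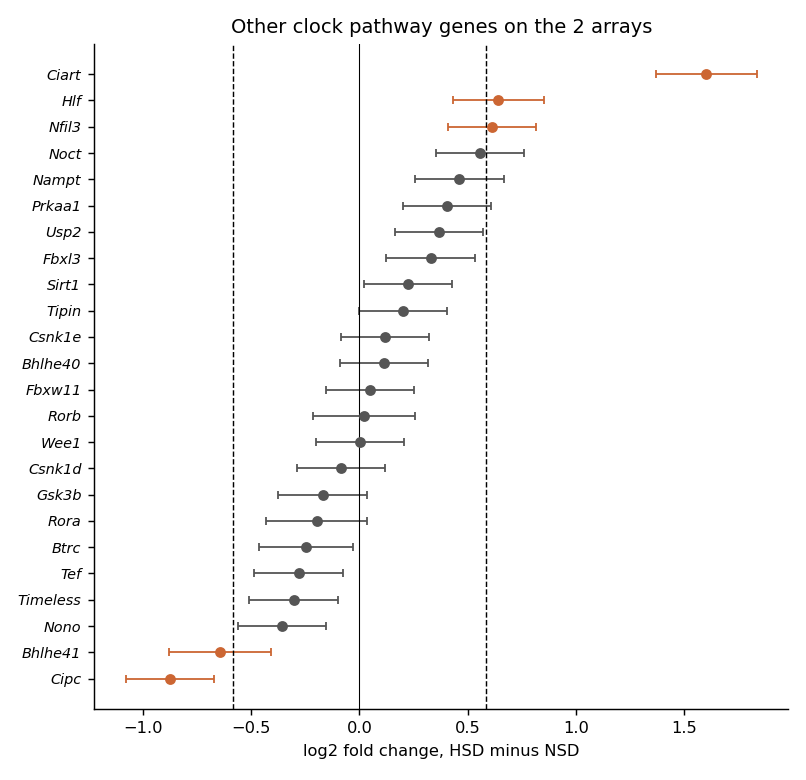
Log2 fold change (HSD minus NSD) with its measurement error for 24 of the 25 other clock pathway genes read on both arrays, ordered by value, with dashed lines at 1.5-fold and genes past them in orange. Ciart, Hlf and Nfil3 lie above the upper line, Bhlhe41 and Cipc below the lower one, and 19 genes between.

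Per1 is also switched on by glucocorticoids and by handling of cells, so genes with the same inducers were read beside it. Glucocorticoid targets were near 0 or slightly below, with Fkbp5 at 0.069, Sgk1 at 0.050, Tsc22d3 at -0.28 and Zbtb16 at -0.27. Immediate-early genes, which respond to tissue digestion and stress, were lower: Fos read 5514 in NSD and 2633 in HSD cells (-0.95), Egr1 772.7 and 437 (-0.71), and Atf3 586.8 and 217.3 (-1.32). Nr4a1 was at -0.40 and did not pass. So 3 of these 8 genes were lower and 0 higher, beside 9.42% and 8.84% of all genes read on both arrays, and their median was -0.34 beside 0.044 over all genes. Per1 was at 0.19. Their part in the clock gene values was not tested.

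The cells themselves were checked against marker genes. All 7 monocytic markers with a probe were well above background on both arrays, with a summed scaled signal of 407 in NSD and 416 in HSD cells, but within the list Fcgr1 (-3.68) and Ccr2 (-0.78) were lower and Cd14 (0.82) was higher. Macrophage markers summed to 27.8 and 18.6, with 5 of 5 above background in NSD and 4 of 5 in HSD cells, and Mrc1 (-4.50), Mertk (-2.52) and C1qa (at least 2.56-fold lower) were lower. The other macrophage markers did not pass, with Adgre1 (6723 and 4252, which made up most of the sum) at -0.55 and C1qb at 0.33. All 7 neutrophil markers were well above background on both arrays, with summed signals of 1070 and 1110, and S100a8, Camp and Ltf were at 51770 to 61820 on the NSD array. The neutrophil sum was larger than the monocytic one on both arrays, so the clock gene values cannot be assigned to monocytic cells alone. Summed signals on the NSD and HSD arrays were 10.3 and 12.6 for T and NK cells, 24.1 and 30.4 for B cells, 0.43 and 0.487 for 4T1 carcinoma, 0.512 and 0.436 for fibroblasts, 0.977 and 1.15 for endothelium, and 43.1 and 48.5 for erythroid cells. Within these lists, Mpo (-0.92) of the neutrophil markers, Cd3e (-1.09) of the T and NK cell markers and Dcn (-0.80) of the fibroblast markers were lower. Of 5 carcinoma markers, 3 were higher: Epcam (0.70 ± 0.24), Krt8 (0.61 ± 0.32) and Krt18 (0.76 ± 0.24), beside 8.84% of all genes read on both arrays. Their signals were low, at 14.51, 8.681 and 15.94 on the NSD array, where the lowest signal well above background was 4.61. Cdh1 (-0.43) and Krt14 (0.069) did not pass. Whether the HSD pool held more carcinoma cells was not tested. No main probe of the B cell, endothelial or erythroid markers passed. The probes of the endothelial marker Kdr disagreed. Its main probe was at 0.28, but a second one read 124.2 in NSD and 20.44 in HSD cells (-2.49). No probe was matched by RefSeq transcript to Ly6c2, Ly6g, Cd68 or Hbb-b1, so these markers were not analysed here. The part of these markers in the values of Cry1, Dbp and Per3 was not tested.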

How the data were processed

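The authors deposited the scanner output of 1 one-colour array per diet, made with Feature Extraction 11.0.1.1. Its processed signal is a background-corrected intensity, not normalized between arrays. The authors also deposited normalized log2 values of the same arrays, made with GeneSpring, which were used as an alternative. Control and outlier spots (162 and 179) were left out, and 39413 probes had a value on both arrays. Spots were averaged on the log2 scale and each array's 75th percentile was subtracted. A probe with several spots was well above background if 50% or more of them were. A difference was called at 1.5-fold. For a probe dim on 1 array a lower bound was given, against the higher of its own signal and the lowest signal well above background there. Both arrays together limit the precision of every value, and 0 spots were saturated.

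Transcript identifiers were matched to RefSeq genes of GRCm38.p6, which named 27223 probes of 20653 genes. The array was designed on an older assembly (mm9 per the file headers), so probe positions are not given. All 10 clock genes were named with every probe, the brighter probe of a gene being the main one, and of the other clock pathway genes those past 1.5-fold and well above background on both arrays. Further pathway genes and markers were picked as examples with their values in view, and 1 pathway gene that is in the counts is not reported here by name. Members and lists were chosen with earlier results of these data known.

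Measurement error came from the deposited error of each processed intensity. Repeated spots of like signal differed by a root mean square of 0.11 to 0.13 on the log2 scale. The alternatives were scaling on the median, scaling on detected probes, quantile normalization, cyclic loess, normexp with offset 50 (on the deposited median spot and background intensities), the deposited log2 values, outlier spots kept, other filters on dim probes, a 2-fold threshold and the median over probes. The calling step was tested on simulated data. Python 3.11.15, numpy 2.4.6, pandas 2.3.3, matplotlib 3.10.9, R 4.3.3 and limma 3.58.1 were used.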

Additional observations from a re-analysis of the deposited data

How the results depend on the processing

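Fold changes of the 8 clock genes read on both arrays kept their direction under the 8 alternatives, except Nr1d2, which reached -0.0059 when scaled on probes detected on both arrays. The difference between the limbs kept its direction under the alternatives that can alter it. No error was worked out for this difference. The error of 0.25 for Cry1 against the positive limb is that of 1 gene and cannot stand in for it. Scaling by 1 number per array leaves the difference as it is by construction. With normexp, 1 clock gene was higher and 0 lower (2 and 1 as reported), Dbp moving to -0.46, 0 other pathway genes were higher and 1 lower (3 and 3), and 961 probes were higher and 923 lower (3030 and 2639). More probes were lower than higher under other normalizations, with 2341 higher and 3178 lower by cyclic loess, 2597 and 2930 by quantile normalization, 2636 and 2927 scaled on detected probes, and 2581 and 2796 in the deposited values. At 2-fold, 1 clock gene was higher and 0 lower, 1 other pathway gene was higher and 0 lower, and 793 probes were higher and 1039 lower. With probes required to be well above background on both arrays, 1 clock gene was higher, and without a filter on dim probes 6010 probes were higher. The cause of the changes with normexp was not tested. No paired analysis was possible because each diet had 1 array. Signals near background limit Per3 and Nr1d1.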
